A study of Mus musculus with 12 samples.

Results

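The 10 genes described here encode the 5 NF-κB subunits (Nfkb1, Nfkb2, Rel, Rela and Relb) and 5 proteins that act on NF-κB signalling or binding (Nfkbia, Nfkbid, Nfkbie, Nfkbiz and Tnfaip3). The latter 5 are called inhibitors below as a group name. Whether each restrains NF-κB in these cells was not tested. The 10 genes were taken by name from the 41457 genes of the expression tables of 12 poly(A) RNA libraries. The choice was made with earlier results of these data known. All 10 were found and passed every filter on low counts.

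The RNA came from splenic RFP+ CD4+ regulatory T cells (Treg) sorted from 2 groups of age- and sex-matched mice, whose ages were not given for this experiment in the sources used here. CD18Foxp3 mice were homozygous for a floxed allele of Itgb2, which encodes the β2-integrin chain CD18, and carried Foxp3Cre, a Cre recombinase driven from the Foxp3 locus, so that exon 3 of Itgb2 was removed in Foxp3-expressing cells. CD18wt mice were littermates with wild-type Itgb2 that also carried Foxp3Cre, so Cre was present in both genotypes, as was the RFP reporter at the ROSA26 locus by which Cre-expressing cells were sorted. Treg of each genotype were kept overnight with 5 U/ml of recombinant human IL-2 alone (unstimulated) or with IL-2 plus 1 µg/ml anti-CD3 and 2 µg/ml anti-CD28 antibody (stimulated), which engage the T cell receptor and its costimulatory receptor. Each of the 4 groups held 3 libraries labelled as biological replicates. The comparisons asked how engagement of both receptors changed the transcripts in each genotype, and whether the loss of CD18 altered their level or their response.

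NF-κB factors are dimers of Rel-homology proteins. Rela, Rel and Relb carry a transactivation domain, whereas Nfkb1 and Nfkb2 encode precursors that are cut to the DNA-binding subunits p50 and p52. In resting cells the IκB proteins hold the dimers in the cytoplasm. Signals from the T cell receptor and CD28 run through PKC-θ to the IκB kinase, which marks IκBα (Nfkbia) and IκBε (Nfkbie) for degradation. The nuclear relatives IκBNS (Nfkbid) and IκBζ (Nfkbiz) bind dimers on DNA, and A20 (Tnfaip3) edits ubiquitin chains upstream of the kinase. Several of these inhibitors are themselves textbook NF-κB targets. In Treg, Rel is known for its part in switching on Foxp3 during thymic development, and Rel and Rela for maintaining the mature cells.

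Each library held 10665174 to 19005482 reads assigned to exons. Itgb2, counted over all its exons and not the removed one alone, averaged 427.7 TPM ± 39.2 (SD, n = 3) in unstimulated CD18wt and 240.1 ± 15.0 in unstimulated CD18Foxp3 Treg, and 329.9 ± 1.16 against 172.0 ± 36.7 after stimulation. By edgeR it differed between the genotypes in unstimulated cells (log2 -0.85 ± 0.09, adjusted p = 0.00408) and did not pass in stimulated ones (log2 -0.94 ± 0.17, adjusted p = 0.216). TPM divides the reads of a gene by its exon length and then by the sum of such values over the library. The 9 Treg and T cell marker genes were all detected in every group and summed to 2830 to 5450 TPM. On stimulation 2 of the 9 rose and 3 fell in CD18wt, and 4 rose and 3 fell in CD18Foxp3 cells. Il2ra rose (log2 2.27 ± 0.16 and 3.13 ± 0.16), whereas Cd3g (-1.58 ± 0.15 and -1.49 ± 0.13) and Cd4 (-1.15 ± 0.13 and -1.25 ± 0.11) fell. The 5 B cell markers summed to 33.2 to 38.8 TPM in unstimulated CD18wt, 27.2 to 35.1 in unstimulated CD18Foxp3, 10.8 to 21.3 in stimulated CD18wt and 9.48 to 13.2 in stimulated CD18Foxp3 libraries. They were thus lower in both stimulated groups, and 2 of 3 tested in CD18wt and 2 of 2 in CD18Foxp3 fell. The summed TPM of the 4 plasma cell markers was higher after stimulation. It was 58.7 to 67.2 in unstimulated and 127 to 164 in stimulated CD18wt, and 66.4 to 71.9 against 153 to 165 in CD18Foxp3 libraries. Xbp1 made up most of it, averaging 59.97 against 141.9 TPM in CD18wt and 67.5 against 157.8 in CD18Foxp3 cells. Sdc1 was also higher (0.237 against 2.00, and 0.320 against 2.77), whereas Jchain was lower (2.32 against 0.369, and 2.23 against 0.185). Of those tested, 1 of 3 rose in CD18wt and 2 of 2 in CD18Foxp3 cells. The 6 cytotoxic lymphocyte markers summed to 77.1 to 93.4 against 91.4 to 147 TPM in CD18wt and 93.5 to 138 against 113 to 132 in CD18Foxp3 libraries, and 2 of 3 tested fell in each genotype. Lists for other cells spanned 5.78 to 19.8 TPM for 8 myeloid markers, of which 1 of 2 tested fell in each genotype, and 0.234 to 58.1 for 5 erythroid markers, of which none was tested in CD18wt and the 1 tested fell in CD18Foxp3 cells. The part of these markers in the results was not tested. In RNA from bulk samples, fewer cells of one type cannot be told apart from less RNA per cell.

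The third library of the unstimulated CD18wt group stood apart. It was the shallowest of the 12, and 196 of 12636 genes lay at least 4-fold below both other libraries of its group, against 22 to 110 such genes in each of the other 11 libraries. Among the 10 genes, Tnfaip3 and Nfkbiz were in that set. The first library of the stimulated CD18Foxp3 group differed most from its own replicates by a chi-square of counts, 58.9 and 64.3 per gene against 11.9 between the other two. It held the highest Rel and the lowest Nfkb1, Nfkb2, Rela, Relb, Nfkbia and Nfkbie TPM of its group. Values without either library are given beside the results that changed most with it.

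Nfkbia was the most abundant of the 10 transcripts in all 4 groups. It averaged 578.5 ± 149.6 TPM in unstimulated CD18wt, 562.9 ± 75.1 in unstimulated CD18Foxp3, 525.2 ± 63.8 in stimulated CD18wt and 498.2 ± 33.0 in stimulated CD18Foxp3 Treg. In unstimulated CD18Foxp3 cells Tnfaip3 came next at 190.9 ± 14.9 TPM, then Rela at 158.4 ± 4.97, and the ranges of these 3 genes did not overlap. Nfkb1 at 95.6 ± 2.93 and Nfkb2 at 92.7 ± 6.81 overlapped each other, and so did neighbours in the order among Nfkbiz, Nfkbie, Relb and Nfkbid, which lay between 44.8 and 46.9 TPM on average. Rel was lowest at 21.5 ± 2.51 TPM. The order was the same for the upper 5 genes of unstimulated CD18wt cells, except that the Tnfaip3 range there overlapped that of Rela, with the third library at 35.3 TPM. After stimulation Nfkb2 had the second highest mean and Tnfaip3 the lowest in both genotypes. The range of Nfkb2 overlapped that of Nfkb1 in CD18Foxp3 and not in CD18wt cells, and the range of Tnfaip3 overlapped that of the next gene, Nfkbiz in CD18wt and Nfkbie in CD18Foxp3 cells. Exon lengths behind these levels join the exons of all annotated transcripts, from 1610 bases for Nfkbia to 12061 for Nfkb1, so that a gene with many rarely used exons is set low against the others.

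**Figure D1:**
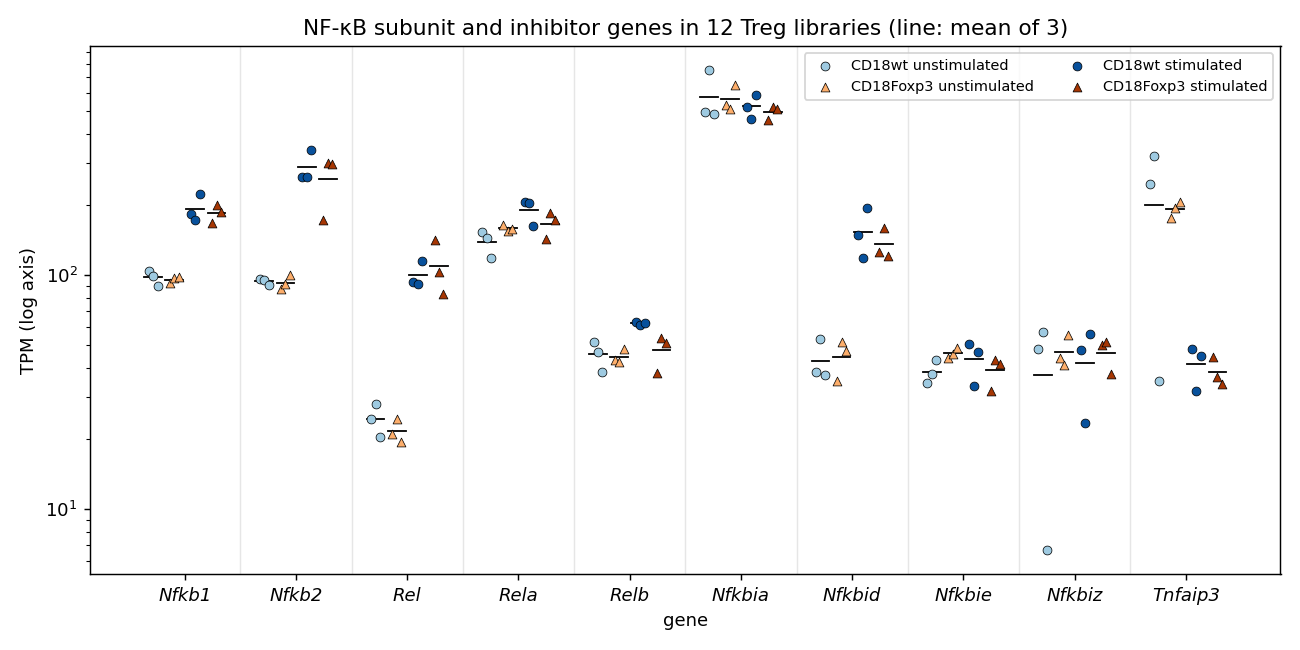
TPM on a log axis of the 10 genes in 12 libraries; circles are CD18wt and triangles CD18Foxp3 libraries, pale before and dark after stimulation, and lines are means of 3. Rel, Nfkb1, Nfkb2 and Nfkbid are higher in every stimulated library than in any unstimulated one, and 1 unstimulated CD18wt library lies at 6.67 TPM for Nfkbiz and 35.3 TPM for Tnfaip3, far below the rest of its group.

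Stimulation raised the transcripts of 2 subunits, Rel and Nfkb2, and of the nuclear inhibitor Nfkbid in both genotypes. A gene was called when it changed at least 1.5-fold with an adjusted p of at most 0.01 in edgeR's quasi-likelihood test on exon reads, adjusted by Benjamini-Hochberg over all genes tested. In CD18wt Treg 3 of the 10 genes were called, all higher, whereas 33.6% of 11930 genes tested were called, 18.7% higher and 14.9% lower. In CD18Foxp3 Treg 5 of the 10 were called, 3 higher and 2 lower, against 38.6% of 12019 genes, 20.9% higher and 17.6% lower. In TPM, 6 of the 10 genes were higher without overlap in stimulated CD18wt cells and 4 overlapped, where 62.0% of genes did not overlap, 47.8% higher and 14.2% lower. In CD18Foxp3 cells 4 were higher and 2 lower without overlap, where 67.1% of genes did not overlap, 47.9% higher and 19.2% lower. The share of called genes was near that of all genes in each genotype. The median log2 fold change of the 10 genes was 0.060 in CD18wt and -0.29 in CD18Foxp3 cells, beside 0.024 and 0.015 over all genes tested.

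Rel, which encodes c-Rel, had the largest rise. Its TPM was 24.3, 28.1 and 20.4 in the unstimulated CD18wt libraries and 93.7, 91.5 and 115.2 in the stimulated ones. In CD18Foxp3 cells it was 21.0, 24.2 and 19.3 without and 140.6, 103.2 and 83.0 with stimulation. The lowest stimulated library therefore lay well above the highest unstimulated one in both genotypes. Rel rose 3.13-fold in CD18wt (log2 1.65 ± 0.14 SE, adjusted p = 1.17e-06, edgeR) and 3.94-fold in CD18Foxp3 cells (log2 1.98 ± 0.21, adjusted p = 4.94e-05).

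Nfkb2, the precursor of p52, went from 95.7, 95.1 and 90.9 TPM to 261.3, 263.4 and 340.4 in CD18wt cells. In CD18Foxp3 cells it went from 86.7, 91.3 and 100.1 to 171.9, 299.4 and 297.4. Groups with and without stimulation did not overlap, and the first stimulated CD18Foxp3 library was the low one. The rise was 2.32-fold in CD18wt (log2 1.21 ± 0.13, adjusted p = 9.01e-06, edgeR) and 2.14-fold in CD18Foxp3 cells (log2 1.10 ± 0.19, adjusted p = 0.000953).

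Nfkbid, whose product IκBNS acts on DNA-bound dimers and is known to favour Foxp3 induction, was at 38.5, 53.3 and 37.4 TPM in unstimulated and 148.9, 117.6 and 193.1 in stimulated CD18wt cells. In CD18Foxp3 cells the values were 35.2, 51.8 and 47.3 without and 125.5, 158.7 and 120.7 with stimulation. The groups were again apart. Nfkbid rose 2.67-fold (log2 1.42 ± 0.17, adjusted p = 1.95e-05, edgeR) and 2.34-fold (log2 1.23 ± 0.16, adjusted p = 0.000221) in CD18wt and CD18Foxp3 cells.

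Rel, Nfkb2 and Nfkbid were called in every fit that left out 1 library and under every other setting tried, in both genotypes. Their exact two-sided permutation p on log2(TPM + 1) was 0.1, the smallest that 3 against 3 libraries can give.

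The 5′ flanks of the genes called on stimulation, and of Nfkbia, which fell short of the fold threshold, are shown here. κB elements are the DNA sequences that the proteins of this family bind. RefSeq windows (GRCm38.p6) were found for 7 of the 10 genes, Nfkb2, Rel, Rela, Nfkbia, Nfkbid, Nfkbie and Tnfaip3, with 12 annotated starts, and not for Nfkb1, Relb and Nfkbiz. The 250 bases before each start were searched on both strands for the κB consensus GGGRNNYYCC, for the AP-1 element TGANTCA and for the cAMP response element TGACGTCA. In these letters R is A or G, Y is C or T, and N is any base. In the stretches that follow, read 5′ to 3′ on the strand of the gene, capitals mark matches to the κB consensus. Overlapping matches run together.
Rel, chr11:23770971-23771089, minus strand: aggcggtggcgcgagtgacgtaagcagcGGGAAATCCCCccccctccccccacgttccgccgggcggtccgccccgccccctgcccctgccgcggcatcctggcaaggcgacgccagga
Nfkb2, chr19:46304698-46304725, plus strand: GGGAATTCCCCccctcggggggccgaaa
Nfkbid, chr7:30422156-30422255, plus strand: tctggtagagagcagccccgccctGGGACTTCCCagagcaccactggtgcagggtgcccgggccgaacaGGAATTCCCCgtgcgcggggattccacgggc
Nfkbia, chr12:55492648-55492747, minus strand: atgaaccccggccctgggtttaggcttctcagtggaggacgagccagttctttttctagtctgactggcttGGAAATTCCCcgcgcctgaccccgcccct
Nfkbie, chr17:45555550-45555648, plus strand: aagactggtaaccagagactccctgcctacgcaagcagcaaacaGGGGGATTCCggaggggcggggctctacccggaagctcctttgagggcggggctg
Tnfaip3, chr10:19015411-19015539, minus strand: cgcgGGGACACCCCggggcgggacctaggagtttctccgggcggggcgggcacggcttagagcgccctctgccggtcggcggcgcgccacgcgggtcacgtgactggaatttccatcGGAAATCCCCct

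A κB match was present for 6 of the 7 genes, in 8 of the 12 windows, and 7.25% of all 32851 mouse windows of this length held one. In Rel the matches began 92 and 91 bases before the start, in Nfkb2 39 and 38 bases before it with a further one at 11, in Nfkbia 29 bases, in Nfkbie 106 bases and in Tnfaip3 125 and 12 bases before it. Those of Nfkbid lay 226 and 181 bases before the second of its 3 annotated starts. Genes that rose, genes that fell and genes that were not called were all among those with a match. The letters of the κB consensus were not found in the window of Rela. AP-1 letters were present for Nfkbie, Tnfaip3 and the second start of Nfkb2, against 6.75% of all windows, and the cAMP response element for the second start of Nfkbid, against 1.55%. A match is a description of the sequence and does not show that it is bound. The Nfkb2 stretch lies in an exon that GENCODE annotates, the starts of Tnfaip3 and Nfkbid used here lie within the gene spans of the deposited tables, and no stretch other than that of Nfkb2 overlaps an annotated exon.

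Nfkb1, the precursor of p50, was near the fold threshold. It was at 104.1, 98.9 and 90.0 TPM in unstimulated and 181.4, 171.7 and 221.9 in stimulated CD18wt cells, and at 92.3, 96.7 and 97.8 against 167.0, 199.0 and 185.2 in CD18Foxp3 cells. The groups were apart in both genotypes. The fitted change was 1.48-fold (log2 0.57 ± 0.13, adjusted p = 0.00324, edgeR) in CD18wt and 1.49-fold (log2 0.58 ± 0.10, adjusted p = 0.00085) in CD18Foxp3 cells, past the p threshold and short of 1.5-fold. Nfkb1 was called in CD18wt without the first stimulated library, and in CD18Foxp3 without the second unstimulated or the first stimulated one. It was also called in both genotypes by limma on log2(TPM + 1), at log2 0.96 and 0.93, and on log2(TPM + 0.1), and in CD18Foxp3 cells without the filter on low counts, at 0.59.

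Rela and Relb, the partners of p50 and p52 in the classical and the alternative dimers, were not called in either genotype. Rela was at 118.7 to 152.0 TPM in unstimulated and 162.6 to 204.0 in stimulated CD18wt cells, and at 154.4 to 164.0 against 141.9 to 183.8 in CD18Foxp3 cells. Relb was at 38.5 to 51.8 against 61.4 to 62.7 TPM in CD18wt cells and 42.4 to 48.5 against 38.2 to 53.6 in CD18Foxp3 cells. On the TPM scale both were therefore higher without overlap in stimulated CD18wt cells, and overlapped in CD18Foxp3 cells. The direction depended on the scaling. With edgeR's TMM normalization the log2 fold changes in CD18wt were 0.071 ± 0.15 for Rela and 0.048 ± 0.13 for Relb, and both turned negative under upper-quartile normalization, at -0.012 and -0.035. In CD18Foxp3 cells they were -0.30 ± 0.11 and -0.28 ± 0.13, neither past the threshold in edgeR, and turned positive in limma on log2(TPM + 1), at 0.057 and 0.073. The median log2 fold change of all genes tested was 0.36 on that TPM scale and 0.024 with TMM in CD18wt cells, and 0.31 against 0.015 in CD18Foxp3 cells, so TPM shifted all genes upward on stimulation. In CD18wt 3589 genes were called higher and 858 lower by limma on log2(TPM + 1), against 2234 and 1779 by edgeR, and in CD18Foxp3 cells 3783 and 1201 against 2516 and 2120.

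Tnfaip3, which encodes A20, showed the largest difference of the 10 genes, and it was lower after stimulation. In CD18Foxp3 cells it went from 175.2, 192.9 and 204.7 TPM to 44.8, 36.8 and 34.1, with no overlap. The fall was 6.35-fold (log2 -2.67 ± 0.14, adjusted p = 1.95e-06, edgeR) and was called in all 6 fits that left out 1 library. In CD18wt cells it was at 243.6, 321.0 and 35.3 TPM without and 48.5, 32.0 and 45.0 with stimulation. The third unstimulated library was within the range of the stimulated ones, and the other two were above every unstimulated CD18Foxp3 library. With all 6 libraries the log2 fold change was -2.64 ± 0.86 (adjusted p = 0.065, edgeR), which did not pass the threshold. Without the third unstimulated library it was -3.13 ± 0.17 (adjusted p = 1.69e-07, edgeR) and called. Tnfaip3 was also called lower in CD18wt cells by DESeq2, by the likelihood ratio test of edgeR and in a fit of all 12 libraries.

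Nfkbia and Nfkbie, the cytoplasmic IκBα and IκBε, differed less. Nfkbia was at 496.1, 751.2 and 488.2 TPM in unstimulated and 523.6, 462.2 and 589.8 in stimulated CD18wt cells, and at 529.9, 510.0 and 648.9 against 460.7, 523.2 and 510.6 in CD18Foxp3 cells. These ranges overlapped in both genotypes. Relative to TMM-scaled libraries the log2 fold change was -0.54 ± 0.16 in CD18wt (adjusted p = 0.0134, edgeR) and -0.54 ± 0.11 in CD18Foxp3 cells (adjusted p = 0.00289), short of 1.5-fold in both. Upper-quartile normalization gave -0.63 (adjusted p = 0.00669, edgeR) and -0.61 (adjusted p = 0.00148), called lower in both genotypes, and so did the fit of CD18Foxp3 cells without the second unstimulated library, at -0.600 (adjusted p = 0.00786).

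Nfkbie was at 34.6, 37.8 and 43.3 TPM in unstimulated and 50.7, 33.6 and 46.7 in stimulated CD18wt cells. In CD18Foxp3 cells it was at 44.4, 46.2 and 48.6 without and 32.0, 43.6 and 41.9 with stimulation, with no overlap. There it fell 1.53-fold (log2 -0.61 ± 0.13, adjusted p = 0.00303, edgeR), just past the fold threshold. The call was lost without any one of the 3 unstimulated libraries or without the first stimulated one, at log2 fold changes of -0.64, -0.61, -0.60 and -0.52, and it was lost in limma on log2(TPM + 1), at -0.25. In CD18wt cells Nfkbie was at log2 -0.24 ± 0.17 by edgeR and at 0.16 in limma on log2(TPM + 1).

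Nfkbiz, the nuclear IκBζ, was not called. It was at 48.4, 57.0 and 6.67 TPM in unstimulated and 47.6, 23.3 and 55.9 in stimulated CD18wt cells, and at 44.4, 41.2 and 55.2 against 50.2, 51.8 and 37.7 in CD18Foxp3 cells. The log2 fold change was -0.23 ± 0.82 in CD18wt, -0.71 ± 0.28 (adjusted p = 0.0806, edgeR) without the third unstimulated library, and 0.54 in limma on log2(TPM + 1). In CD18Foxp3 cells it was -0.37 ± 0.15 (adjusted p = 0.0651).

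**Figure D2:**
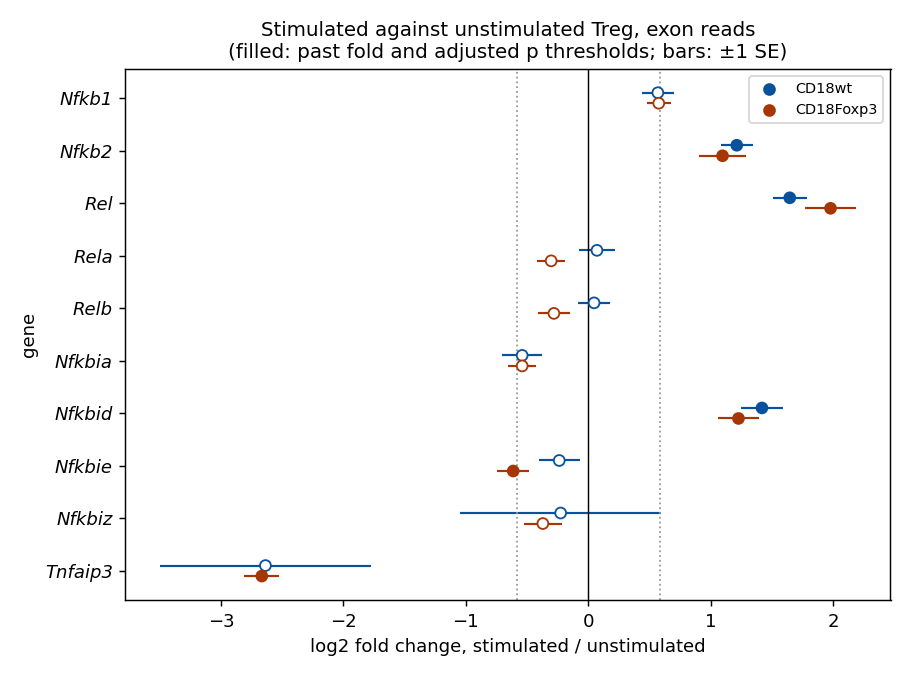
Log2 fold change of exon reads, stimulated over unstimulated, for CD18wt and CD18Foxp3 Treg; points are edgeR estimates, bars ±1 SE, dotted lines 1.5-fold, and filled points are called. Rel, Nfkb2 and Nfkbid lie to the right in both genotypes, and Tnfaip3 lies near -2.6 in both, with a wide bar in CD18wt.

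The make-up of the subunit transcripts differed between unstimulated and stimulated cells. A share within the 5 subunit genes of one library does not depend on how the library is scaled. The share of Rel in the summed subunit TPM was 5.67, 6.80 and 5.68% in unstimulated and 11.7, 11.6 and 12.8% in stimulated CD18wt cells. In CD18Foxp3 cells it was 5.14, 5.93 and 4.57% against 21.3, 12.3 and 10.52%. The shares did not overlap, and the first stimulated CD18Foxp3 library was the highest. The rise in CD18Foxp3 cells was 9.50 percentage points with that library and 6.20 without it. Nfkb2 made up 23.6% ± 1.57 (SD, n = 3) without and 34.5% ± 2.80 with stimulation in CD18wt cells, and 22.4% ± 1.21 against 33.2% ± 6.23 in CD18Foxp3 cells.

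The shares of Rela and Relb were correspondingly lower. Rela went from 34.5% ± 1.24 to 23.1% ± 4.36 in CD18wt and from 38.4% ± 1.65 to 21.7% ± 0.199 in CD18Foxp3 cells, and Relb from 11.4% ± 0.681 to 7.50% ± 0.494 and from 10.8% ± 0.563 to 6.22% ± 0.376. All 4 of these genes were apart between stimulated and unstimulated libraries in both genotypes, each with an exact permutation p of 0.1, the smallest possible. The share of Nfkb1 stayed between 21.7 and 25.3% in all 12 libraries and overlapped between stimulated and unstimulated cells of each genotype. Between the genotypes it was lower without overlap in unstimulated CD18Foxp3 cells, at 22.7 to 23.6% against 23.95 to 25.1% in CD18wt cells. The share of Rela was higher there, at 37.1 to 40.2% against 33.1 to 35.5%, and that of Relb was lower in stimulated CD18Foxp3 cells, at 5.79 to 6.47% against 6.93 to 7.81%. The exact permutation p was 0.1 for each of these 3, and the other shares overlapped between the genotypes. By TPM, Rela was thus the leading subunit transcript in each unstimulated library, and Nfkb2 in each stimulated one. This order rests on exon lengths joined over all annotated transcripts, 12061 bases for Nfkb1 against 2716 for Rela and 3289 for Nfkb2. Nfkb1 had more exon reads than Rela or Nfkb2 in every library. Whether it would lead with the lengths of the transcripts in use was not tested.

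**Figure D3:**
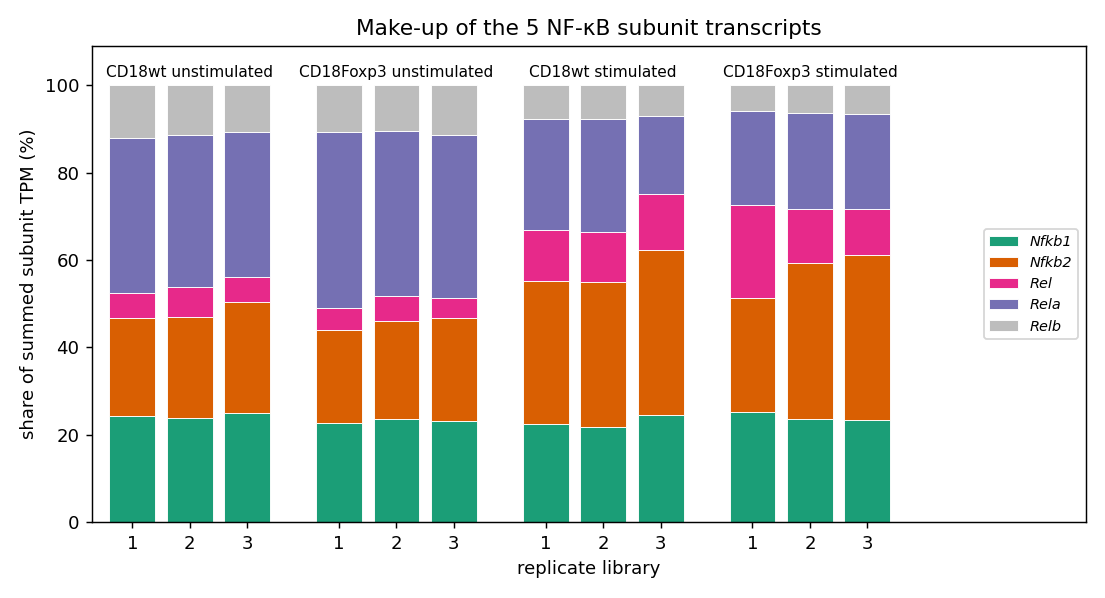
Share in percent of each of the 5 subunit genes in their summed TPM, one bar per library, grouped by genotype and stimulation. The Rel and Nfkb2 parts are wider and the Rela and Relb parts narrower in all 6 stimulated libraries, while the Nfkb1 part stays at 21.7 to 25.3%.

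The ratio of the 5 summed inhibitor transcripts to the 5 summed subunit transcripts was lower after stimulation, where the subunit sum was higher. The summed TPM of the 5 subunit genes was 399.7 ± 36.6 in unstimulated and 832.5 ± 61.0 in stimulated CD18wt cells, and 413.0 ± 8.33 against 762.2 ± 92.5 in CD18Foxp3 cells. Of these sums Nfkb2 made 93.9 against 288.4 TPM in CD18wt and 92.7 against 256.2 in CD18Foxp3 cells. Nfkb1 made 97.6 against 191.7 and 95.6 against 183.7. Both genes encode precursors and were counted as subunits only, so the ratio depends on this grouping. The summed TPM of the 5 inhibitor genes was 897.4 ± 306.3 against 806.2 ± 131.4, and 891.9 ± 98.0 against 757.5 ± 51.6. By library this sum overlapped in CD18wt cells, at 861, 1220 and 611 against 819, 669 and 930.5, and not in CD18Foxp3 cells. Nfkbid, a part of this sum, rose in both genotypes. Nfkbib, a further IκB gene outside the sum, averaged 46.7 against 145.8 TPM in CD18wt and 51.2 against 124 in CD18Foxp3 cells. The ratio of inhibitor to subunit TPM was 2.01, 2.96 and 1.71 before and 1.02, 0.845 and 1.03 after stimulation in CD18wt cells, and 2.04, 2.06 and 2.38 against 1.08, 0.971 and 0.945 in CD18Foxp3 cells. Each unstimulated library exceeded each stimulated one (exact permutation p = 0.1 in each genotype, the smallest possible). The geometric mean of the ratio was 2.25-fold and 2.16-fold lower after stimulation. Nfkbia per Rela transcript, the pair of the classical dimer and its inhibitor, overlapped instead, with 3.26, 5.22 and 4.11 against 2.57, 2.27 and 3.63 in CD18wt cells (exact permutation p = 0.2) and 3.23, 3.30 and 4.14 against 3.25, 2.85 and 2.98 in CD18Foxp3 cells (p = 0.2). These are ratios of transcripts, not of proteins.

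Reads within introns, which come largely from RNA that has not been spliced, moved differently from exon reads for several of the genes. In CD18Foxp3 Treg, Tnfaip3, Nfkbia, Nfkbid, Nfkbie, Nfkbiz and Nfkb2 fell in intron reads, 6 of the 10 genes and none higher, where 30.4% of 10260 genes were called, 15.0% higher and 15.4% lower. All 5 inhibitor genes were thus lower, and 1 of the 5 subunit genes. In CD18wt Treg none of the 10 was called by edgeR, 4 had an unadjusted p under 0.05, and 7.8% of 9492 genes were called, 2.71% higher and 5.09% lower. DESeq2 called 2 of the 10 there, both lower, where it called 1080 of 9492 genes, 459 higher and 621 lower. Without the third unstimulated CD18wt library edgeR called 3, Tnfaip3, Nfkbia and Nfkbiz, all lower. In that fit 1060 of 10860 genes were called, 397 higher and 663 lower.

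Tnfaip3 intron reads numbered 1615, 1002 and 1385 in unstimulated and 34, 14 and 17 in stimulated CD18Foxp3 libraries. In CD18wt libraries they numbered 1461, 1460 and 38 without and 14, 3 and 48 with stimulation. The third unstimulated library again lay within the stimulated range. The fall was 90.1-fold in CD18Foxp3 cells (log2 -6.49 ± 0.23, adjusted p = 2.51e-31, edgeR), against 6.35-fold in exon reads. In CD18wt cells the log2 fold change was -5.84 ± 1.29 (adjusted p = 0.034) and, without the third unstimulated library, -6.36 ± 0.48 (adjusted p = 1.07e-08). Reads that span a splice junction of Tnfaip3, which come from spliced RNA, numbered 564 to 712 against 116 to 186 in CD18Foxp3 and 797, 1268 and 100 against 134, 99 and 154 in CD18wt libraries.

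Nfkbid and Nfkb2 moved in opposite directions in exon and intron reads. Nfkbid introns held 31.8, 26.6 and 24.9% of all Nfkbid reads in unstimulated and 8.26, 9.01 and 8.69% in stimulated CD18Foxp3 cells. The share in CD18wt cells was 31.1, 27.1 and 7.05% against 7.11, 6.94 and 9.95%, so that the third unstimulated library once more resembled the stimulated ones. Its intron reads fell 2.19-fold in CD18Foxp3 cells (log2 -1.13 ± 0.19, adjusted p = 3.04e-06, edgeR), while its exon reads rose 2.34-fold. Nfkb2 intron reads made up 5.28% ± 0.311 (SD, n = 3) of the gene's reads before and 1.40% ± 0.218 after stimulation in CD18Foxp3 cells, and fell 2.41-fold (log2 -1.27 ± 0.26, adjusted p = 6.25e-05). In CD18wt cells the changes in intron reads were log2 -0.65 ± 0.39 for Nfkbid and -0.92 ± 0.33 for Nfkb2 (adjusted p = 0.259 and 0.0606, edgeR). Without the third unstimulated library Nfkbid was at -1.05 ± 0.30 (adjusted p = 0.0127), still not called.

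Nfkbia and Nfkbie fell 2.79-fold (log2 -1.48 ± 0.24, adjusted p = 9.78e-07, edgeR) and 3.32-fold (log2 -1.73 ± 0.30, adjusted p = 3.18e-06) in intron reads of CD18Foxp3 cells. Their exon reads fell 1.45-fold and 1.53-fold there. Nfkbiz fell 2.82-fold there (log2 -1.496 ± 0.163, adjusted p = 2.90e-11). It was the gene of the 10 with the largest intron share, 25.3 to 62.6% of its reads over the 12 libraries. For Rel the intron change in CD18Foxp3 cells was log2 -0.50 ± 0.24 (adjusted p = 0.0847), for Nfkb1 -0.098 ± 0.158, for Rela 0.25 ± 0.25 and for Relb -0.30 ± 0.22. The 4 subunit genes other than Nfkb2 were thus not called.

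The ratio of intron to exon reads within each library, tested in limma after the data had been seen, fell in CD18Foxp3 cells for Tnfaip3 (log2 -3.80 ± 0.29), Rel (-2.40 ± 0.33), Nfkbid (-2.31 ± 0.22) and Nfkb2 (-2.27 ± 0.22), with adjusted p from 0.00169 to 0.00598. These were 4 of the 10 genes, where 4.93% of 9064 genes passed, 2.9% lower and 2.03% higher. In CD18wt cells the same ratios were log2 -3.42 ± 0.69, -1.60 ± 0.61, -1.83 ± 0.50 and -2.15 ± 0.35. No gene of 8554 was called there by limma at these thresholds, while 1894 had an unadjusted p under 0.05 and 112 an adjusted p of at most 0.05, Nfkb2 among them (adjusted p = 0.0394). Without the third unstimulated library Tnfaip3 was at -3.71 ± 0.79, Rel at -2.31 ± 0.39, Nfkbid at -2.39 ± 0.34 and Nfkb2 at -2.08 ± 0.35, again with no gene called and 2151 with an unadjusted p under 0.05.

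**Figure D4:**
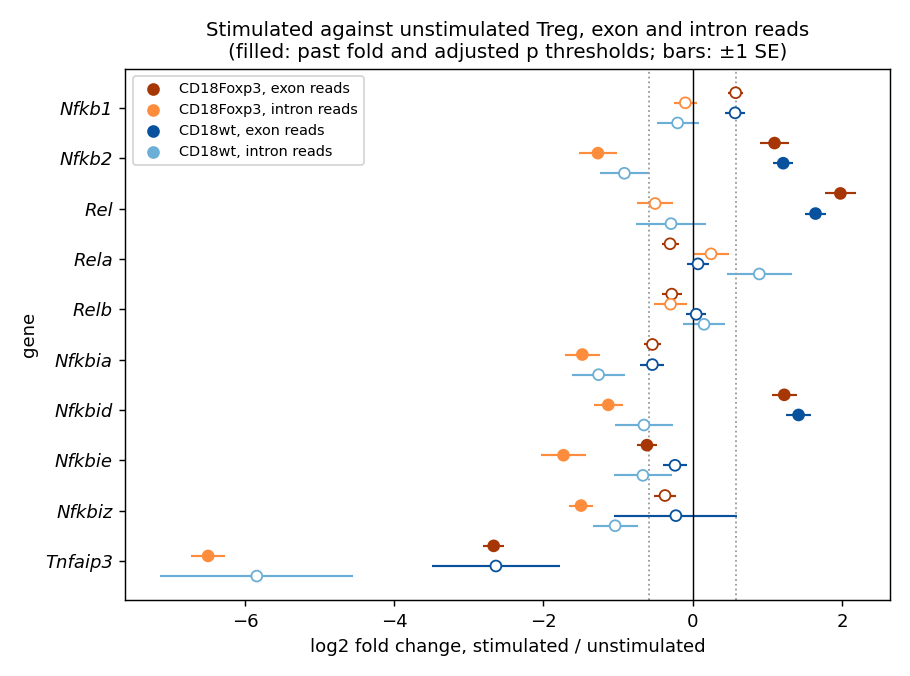
Log2 fold change, stimulated over unstimulated, of exon reads and of intron reads in both genotypes; bars are ±1 SE, dotted lines 1.5-fold, and filled points are called. Nfkb2 and Nfkbid lie right of 0 in exon reads and left of 0 in intron reads, and the intron points of Tnfaip3 lie near -6.

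The pathway around these genes was described from lists of its other parts, to be read against the 18.7% of all genes that rose and 14.9% that fell in CD18wt and the 20.9% and 17.6% in CD18Foxp3 cells. Of 13 further IκB family genes and partners of A20, 2 rose and 2 fell in CD18wt and 2 rose and 3 fell in CD18Foxp3 cells, with a median log2 fold change of 0.12 and -0.011 beside 0.024 and 0.015 over all genes tested. Nfkbib, which encodes IκBβ, rose in both genotypes (log2 1.24 ± 0.13 and 0.91 ± 0.21), in contrast to Nfkbia and Nfkbie. Cyld, a deubiquitinase that acts beside A20, fell (-1.03 ± 0.13 and -0.90 ± 0.12), and so did Bcl3, the nuclear partner of p50 and p52 (-0.71 ± 0.17 and -0.72 ± 0.17). Adjusted p was between 6.14e-06 and 0.00499 for these 3 genes (edgeR).

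Of 17 kinases and adaptors of the canonical route, 2 rose and 3 fell in CD18wt and 3 rose and 3 fell in CD18Foxp3 cells. Prkcq, encoding PKC-θ, fell (log2 -1.51 ± 0.12 and -1.63 ± 0.11), whereas Traf6 rose (1.04 ± 0.13 and 0.99 ± 0.12). Of 6 genes of the noncanonical route, which releases p52 from its precursor, none rose and 1 fell in CD18wt, and 1 rose and 3 fell in CD18Foxp3 cells. Map3k14, encoding the kinase NIK, was at -0.64 ± 0.21 (adjusted p = 0.0213) and fell by 0.93 ± 0.12 on the log2 scale in CD18Foxp3 cells, and Birc2 fell in both (-1.10 ± 0.18 and -0.85 ± 0.13). Of 24 textbook NF-κB target genes, 12 rose and 3 fell in CD18wt and 14 rose and 3 fell in CD18Foxp3 cells. Their median log2 fold change was 0.98 and 1.12, beside 0.024 and 0.015 over all genes tested. This list, like the others, was chosen with earlier results of these data known, and its counts describe the genes and test nothing. Of the TNF receptor family inputs, 3 rose and 2 fell in each genotype, among 6 and 7 tested, led by Tnfrsf9 at 2.02 ± 0.14 and 2.61 ± 0.14.

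The genes with the profiles most like those of the 3 genes that changed most were found from the root mean square difference of centred log2 CPM, counts scaled to library size, over the 12 libraries, among 12636 genes. For Tnfaip3 these were Zfp36 (0.311), Mrvi1 (0.365) and Klf6 (0.416), where the profile of Tnfaip3 itself had a root mean square of 1.40. For Rel they were Wdr75 (0.134), Rpf2 (0.140) and Larp4 (0.152), against 0.924 for Rel. For Nfkbid they were Usp31 (0.161), Fgfr1op (0.176) and Mrps10 (0.181), against 0.695. All points share the 12 libraries and the difference between cultures.

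Loss of CD18 was not accompanied by a called difference in any of the 10 genes. In unstimulated cells 0 of the 10 were called by edgeR, where 0.135% of 11829 genes were called. None of the 10 had an unadjusted p under 0.05 in edgeR. DESeq2 called 0 of the 10 and 86 of the 11829 genes. In stimulated cells edgeR and DESeq2 again called 0 of the 10. Of 11930 genes tested edgeR called 0.0%, with 583 at an unadjusted p under 0.05, and DESeq2 called 22. Among the 10, 1 gene, Relb, had an unadjusted p under 0.05. The largest log2 differences in unstimulated cells, CD18Foxp3 over CD18wt, were 0.31 ± 0.76 for Nfkbiz, 0.24 ± 0.11 for Nfkbie, -0.19 ± 0.12 for Rel and 0.18 ± 0.09 for Rela. Without the third CD18wt library Nfkbiz was at -0.16 ± 0.11, and Tnfaip3 moved from -0.067 ± 0.81 to -0.55 ± 0.10 (adjusted p = 0.0227, edgeR), still not called. The 2 other CD18wt libraries, at 243.6 and 321.0 TPM, both lay above the CD18Foxp3 range of 175.2 to 204.7 for Tnfaip3.

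In unstimulated cells 2 of the 10 genes did not overlap in TPM between the genotypes, Rela and Nfkbie, both higher in CD18Foxp3 cells, where 15.6% of all genes did not overlap and 8.74% of all genes were higher without overlap. Rela was at 118.7 to 152.0 in CD18wt and 154.4 to 164.0 in CD18Foxp3 libraries, and Nfkbie at 34.6 to 43.3 and 44.4 to 48.6. The exact permutation p was 0.1 for each, the smallest possible. In stimulated cells Relb alone did not overlap, lower in CD18Foxp3 cells, where 9.43% of all genes did not overlap and 4.41% of all genes were lower without overlap. It was at 62.7, 61.4 and 62.6 TPM in CD18wt and 38.2, 53.6 and 51.01 in CD18Foxp3 libraries (log2 -0.38 ± 0.16, unadjusted p = 0.0358 and adjusted p = 0.97 in edgeR). Without the first CD18Foxp3 library, the lowest, it was at -0.26 ± 0.13, and the unadjusted p was above 0.05 there, without the first or the second CD18wt library and with the replicate block. The other 9 genes overlapped, with log2 differences from -0.20 to 0.18.

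**Figure D5:**
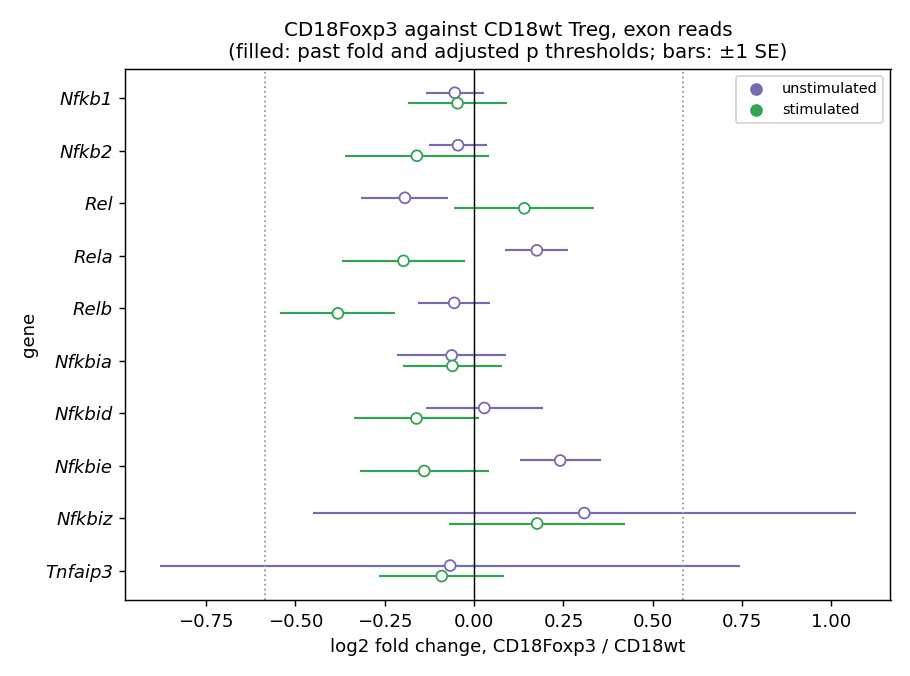
Log2 fold change of exon reads, CD18Foxp3 over CD18wt, in unstimulated and stimulated Treg; points are edgeR estimates, bars ±1 SE and dotted lines 1.5-fold. No point is filled, as none of the 10 genes was called, and the wide bars of Nfkbiz and Tnfaip3 in unstimulated cells include 1 library that stood apart.

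The difference in response between the genotypes was tested as the interaction of genotype and stimulation in one edgeR fit of all 12 libraries. None of the 10 genes passed and none had an unadjusted p under 0.05. In that fit 0.0% of 12636 genes passed, while 485 of them had an unadjusted p under 0.05. DESeq2 called 0 of the 10 and 1 of the 12636 genes. The largest interactions were -0.38 ± 0.20 for Rela, -0.38 ± 0.22 for Nfkbie, -0.33 ± 0.19 for Relb and 0.32 ± 0.24 for Rel, on the log2 scale and with adjusted p of 0.987 or more. For Tnfaip3 the interaction was -0.035 ± 0.82 with all libraries and 0.45 ± 0.22 without the third unstimulated CD18wt library. Its call in CD18Foxp3 cells alone is therefore not a shown difference between the genotypes. In intron reads the same contrasts called 0 of the 10 genes in unstimulated cells, in stimulated cells and for the interaction, where 0.0% of all genes were called in each and 361, 384 and 470 genes had an unadjusted p under 0.05. Only Nfkbie, in the interaction, had an unadjusted p under 0.05 among the 10 (log2 -1.06 ± 0.48, edgeR).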

How the data were processed

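Splenic Treg of 2 genotypes, cultured in 2 ways, gave 12 libraries, 3 per group, of 59-base single reads. The authors mapped them to the mouse genome GRCm38 in CLC Genomics Workbench 20.0 at default settings and deposited, per gene and library, total and unique exon counts, intron and junction counts, TPM and RPKM. The RPKM and TPM values come from the authors and were not refitted as counts. The tables give TPM, RPKM and other decimals with a decimal comma, which was read as a point. The members and lists were chosen with earlier results of these data known.

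Total exon counts, and separately total intron counts, were fitted for each comparison in edgeR 4.0.16 (TMM, genes kept by filterByExpr at a minimum count of 10, quasi-likelihood F test), using only the 6 libraries compared, or all 12 for the interaction. A gene was called past a 1.5-fold change with p, adjusted by Benjamini-Hochberg, not above 0.01, the thresholds of the study's methods. Single levels, shares and ratios were compared by exact two-sided permutation, in which 3 against 3 libraries cannot go below p = 0.1. Intron to exon ratios, with 0.5 added to each count and centred on the median of each library, were fitted in limma 3.58.1. Scripts were tested on simulated data. Alternatives were DESeq2 1.42.0, the likelihood ratio test, upper-quartile scaling, other filters, unique reads, limma on log2(TPM + 1) or log2(TPM + 0.1), a replicate block, an adjusted p of 0.05, all 12 libraries in 1 fit, and leaving out each library. Intron fits of the genotype contrasts and the intron to exon ratio were added after seeing the data. All 10 members were named, and beyond them up to 4 genes a list with the largest change among those called, and the 3 genes nearest in profile to each of the 3 members that changed most on stimulation, with Map3k14 in CD18wt cells given beside its call. Jchain, and Sdc1 in CD18wt cells, were given beside Xbp1. The labels call the replicates biological and do not say which mice they came from, so p-values measure the spread between these libraries. The kit does not mark strand, so reads of overlapping antisense genes cannot be told apart. All exon reads of the 10 genes were uniquely placed. Some genes of the lists are not reported here by name.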

Additional observations from a re-analysis of the deposited data

How the results depend on the processing

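The calls of Rel, Nfkb2 and Nfkbid on stimulation held under all alternatives run. On exon reads the count of called members stayed within 1.5 times in each comparison, at 3 to 4 in CD18wt and 4 to 6 in CD18Foxp3 cells, and 0 for both genotype comparisons and the interaction. Over the same fits 3251 to 4777 of all genes were called in CD18wt and 3591 to 5470 in CD18Foxp3 cells. The genotype comparisons called 0 to 134 genes in unstimulated and 0 to 61 in stimulated cells, and the interaction 0 to 31. The highest of these 3 came without the filter, among 19034, 21288 and 22767 genes. On intron reads in CD18wt cells the count of called members was 0, and 2 with DESeq2 or without the filter. It was 0 to 3 over fits without 1 library, the 3 coming without the third unstimulated library. Of all genes, 740 were called on intron reads in the main fit there and 159 to 1119 in the others. The cause was not tested.

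Reversed signs of log2 fold changes concerned members that were not called. On stimulation in CD18wt cells, upper-quartile scaling gave -0.012 for Rela and -0.035 for Relb, limma on log2(TPM + 1) and on log2(TPM + 0.1) gave 0.1605 and 0.1637 for Nfkbie and 0.54 and 0.58 for Nfkbiz, and leaving out 1 library gave -0.076 to 0.20 for Rela, -0.033 to 0.13 for Relb, -0.71 to 0.19 for Nfkbiz and -0.73 to 0.053 for Rel on intron reads. In CD18Foxp3 cells these limma fits gave 0.0568 and 0.0571 for Rela and 0.0726 and 0.0738 for Relb. Between genotypes in unstimulated cells they gave 0.43 and 0.44 for Tnfaip3, and leaving out 1 library gave -0.13 to 0.029 for Relb, -0.17 to 0.15 for Nfkbia, -0.10 to 0.19 for Nfkbid, -0.16 to 0.73 for Nfkbiz and -0.55 to 0.44 for Tnfaip3. In stimulated cells leaving out 1 library gave -0.094 to 0.027 for Nfkb1, -0.29 to 0.048 for Nfkb2, -0.11 to 0.30 for Rel, -0.082 to 0.39 for Nfkbiz and -0.23 to 0.0202 for Tnfaip3. For the interaction, Nfkb1 was at -0.0098 without the filter and -0.0275 in both limma fits, Nfkbia at 0.0154 with DESeq2 and with upper-quartile scaling and 0.0026 with at least 10 counts in every library, and leaving out 1 library gave -0.053 to 0.075 for Nfkb1, -0.25 to 0.091 for Nfkb2, -0.21 to 0.10 for Nfkbia, -0.57 to 0.33 for Nfkbiz and -0.54 to 0.45 for Tnfaip3. The cause was not tested.

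The labels do not say whether the replicate numbers pair the libraries. Correlations of deviations between same-numbered unstimulated and stimulated libraries were 0.096, -0.019 and -0.095 in CD18wt and 0.135, 0.070 and 0.147 in CD18Foxp3 cells. In CD18Foxp3 cells each library was nearest to its own number, and in CD18wt cells only the first was. This is a hint from the data and not the design. With the replicate block 3 members were called in CD18wt and 5 in CD18Foxp3 cells on exon reads, and 0 and 6 on intron reads, as without it, Nfkbiz in CD18wt cells moved to 0.0375 and the genotype difference of Tnfaip3 in unstimulated cells to 0.33. Without 1 library the rise of the Rel share in CD18Foxp3 cells was 6.20 to 11.6 percentage points, the lowest without the first stimulated library. Shares were the same with RPKM or unique reads, but neither could have differed. Within a library RPKM and TPM differ by a constant factor, and all exon reads of these genes were uniquely placed. This sameness therefore tests nothing. Precision is limited by 3 libraries per group and, for intron reads of Tnfaip3 after stimulation, by 3 to 48 reads.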
